A study of Mus musculus with 6 samples.

Results

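The EGF family ligands and receptors were examined in 6 libraries of poly(A) RNA labelled as mouse embryonic stem cells. The 10 genes were taken by symbol: the ligand genes Areg, Ereg, Hbegf, Tgfa, Btc and Epgn, the receptor genes Egfr, Erbb2 and Erbb3, and the receptor inhibitor gene Errfi1. All 10 were among the 17912 genes of the deposited table. The knockdown group was 3 libraries titled as clones 5, 6 and 7 carrying a short hairpin RNA (shEXOSC2), with the genotype label EXOSC2_KD. The other group was 3 libraries titled as controls 1, 2 and 3, with the genotype label WT. All 6 carry the same cell type label and the labels name no other treatment, age or strain. The labels do not say whether the controls held a control hairpin, whether controls and clones share a parental line, or whether libraries came from separate cultures. The p-values therefore measure only the spread between these libraries, which may be technical, and clone and hairpin cannot be told apart.

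The ligands of this family are made as membrane proteins, and proteases of the ADAM family release their EGF domains. All 6 ligand members bind EGFR, and epiregulin (Ereg), HB-EGF (Hbegf) and betacellulin (Btc) also bind ERBB4. ERBB2 has no known ligand of its own and signals as a partner of the other receptors, while ERBB3 binds neuregulins and has little kinase activity. ERRFI1, also called MIG6, binds the kinase domain of EGFR and ERBB2 and inhibits it, and its transcription rises after receptor signalling. In mouse embryonic stem cells ERK is driven mainly by FGF4, and ERK activity favours exit from naive pluripotency.

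Levels are scaled counts, read counts divided by a size factor per library, with means ± SD over n = 3 libraries per group. Log2 fold changes are differences of mean log2 values, shEXOSC2 over control, after 1 was added to each scaled count, and carry their SE. For genes with few reads they depend on the added 1 and on single libraries at 0, and can lie above or below other estimates. A gene was called at a Benjamini-Hochberg adjusted p under 0.05 in limma over 15179 genes with a mean of at least 10. Recovered reads numbered between 24268430 and 26494985 in the clones and between 21107761 and 24633836 in the controls. Exosc2, the targeted RNA exosome subunit, measured 1138, 997 and 981 in clones 5, 6 and 7, against 2457, 2473 and 1954 in controls 1, 2 and 3, so the clones held 45.3% of the control mean. Exosc2 had an adjusted p of 5.11e-05 in limma, and an exact two-sided permutation test gave 0.1, the smallest p that 3 against 3 libraries allow. The stem cell label was checked on 10 markers, of which 9 fell and 1, Pou5f1, rose in the clones, with Zfp42 and Utf1 at no read in any clone. Their summed level was 92827 to 99046 in the clones, most of it Pou5f1, against 104906 to 121478 in the controls. Nanog, Zfp42, Esrrb, Tdgf1 and Utf1 reached the mean of 10 only through the controls and so had to differ. Nanog averaged 0.674 in the clones and 9698 in the controls, so the clones lacked some defining markers of the cell type they are labelled with. Others fell but remained expressed. Sox2 averaged 2805 in the clones and 11834 in the controls, and Fgf4 averaged 1663 in the clones and 3437 in the controls. Control 3 stood apart from the other controls on some markers: Krt14 was 179 there, against 5.68 and 9.72 in controls 1 and 2, and Csf1r was 205, against 9.47 and 8.64. Without control 3 every member kept its direction and its call.

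Of the 10 members, 8 rose, 1 fell and 1 was not called. Among all genes tested 73.5% were called, 35.2% higher and 38.3% lower, so a call by itself sets no gene apart here. Of the 10 members, 8 had every clone above every control and 1 had every clone below every control. Over all genes tested those shares were 36.7% and 40.6%. The median log2 fold change was 3.20 over the 10 members and -0.07 over all genes tested. These member figures are a description, since Areg, Btc and Epgn reached the mean of 10 only through the clones and so had to differ. Fewer cells of one kind and less RNA per cell cannot be told apart in such bulk libraries.

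**Figure D1:**
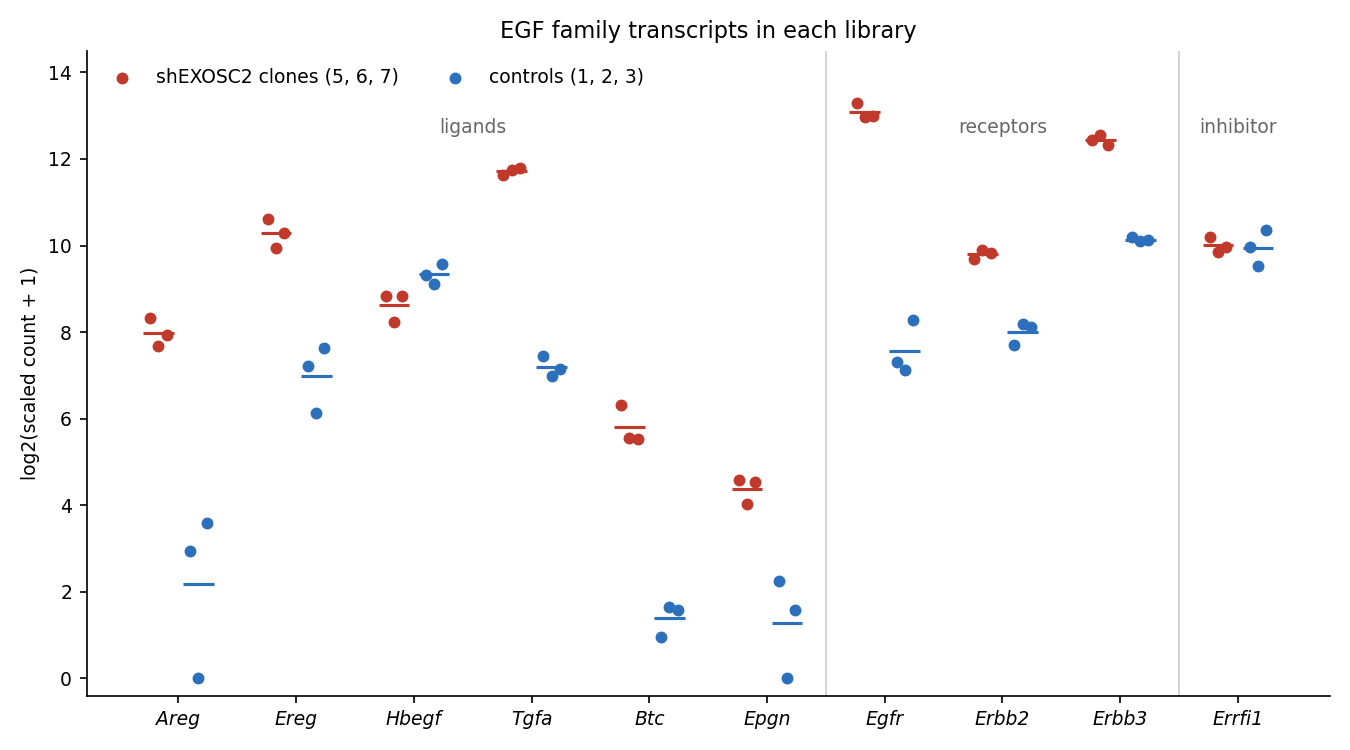
Each point is the log2(scaled count + 1) of an EGF family gene in 1 library, with shEXOSC2 clones in red left of controls in blue, and bars at the group means. Clones lie above controls for 5 ligands and 3 receptors, below them for Hbegf, and overlap them for Errfi1.

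Stretches of DNA around the transcription start are shown for the ligands Areg and Tgfa and the receptor Egfr, which had the largest rises among members with a mean of at least 100, and for Errfi1, which was not called. RefSeq promoter windows of 300 bases (GRCm38.p6, 250 bases before to 50 after the start) matched 7 of the 10 members. Ereg, Hbegf and Erbb3 were not matched. Capitals mark matches, on either strand, to TGACGTCA (the cyclic AMP response element), TATAAA (the TATA box), GGGCGG (the GC box) and CCGGAAG (an ETS factor core). The motifs TGANTCA (AP-1) and GGAATG (TEAD) were also searched and have no match in these 4 windows.
Areg, chr5:91139349-91139648, plus strand: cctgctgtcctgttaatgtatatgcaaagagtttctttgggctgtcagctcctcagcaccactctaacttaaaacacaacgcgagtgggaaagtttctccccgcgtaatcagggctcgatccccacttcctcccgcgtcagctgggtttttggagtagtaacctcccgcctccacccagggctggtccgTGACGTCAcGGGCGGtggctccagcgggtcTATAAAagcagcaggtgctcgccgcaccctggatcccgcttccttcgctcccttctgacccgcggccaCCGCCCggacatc
Tgfa, chr6:86194972-86195271, plus strand: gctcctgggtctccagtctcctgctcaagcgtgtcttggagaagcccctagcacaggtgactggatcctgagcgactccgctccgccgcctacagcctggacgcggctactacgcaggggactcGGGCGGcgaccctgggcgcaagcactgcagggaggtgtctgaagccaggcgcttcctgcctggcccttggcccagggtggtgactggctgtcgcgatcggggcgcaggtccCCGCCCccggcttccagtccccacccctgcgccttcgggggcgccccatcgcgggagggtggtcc
Egfr, chr11:16751953-16752252, plus strand: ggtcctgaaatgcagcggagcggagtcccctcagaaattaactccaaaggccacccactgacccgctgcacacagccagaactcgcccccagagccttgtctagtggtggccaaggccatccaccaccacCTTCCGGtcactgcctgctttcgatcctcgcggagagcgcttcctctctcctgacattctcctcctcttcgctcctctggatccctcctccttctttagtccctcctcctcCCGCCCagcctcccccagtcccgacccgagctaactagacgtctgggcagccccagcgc
Errfi1, chr4:150854820-150855119, plus strand: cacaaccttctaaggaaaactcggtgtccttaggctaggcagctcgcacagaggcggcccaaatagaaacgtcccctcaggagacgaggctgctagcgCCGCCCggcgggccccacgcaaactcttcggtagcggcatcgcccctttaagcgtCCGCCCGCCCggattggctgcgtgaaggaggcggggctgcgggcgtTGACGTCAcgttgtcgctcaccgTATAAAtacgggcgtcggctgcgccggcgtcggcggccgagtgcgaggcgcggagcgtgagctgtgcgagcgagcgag

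The Areg window and the printed Errfi1 window share a layout that the other 2 printed windows lack. Areg holds TGACGTCA with its first base at position -61 and TATAAA at -31, counted from the start site, and Errfi1 holds them at -51 and -28. TGACGTCA stands in 1.79% and TATAAA in 13.6% of 32851 RefSeq promoter windows of the same length. GGGCGG matched at -52 and 38 in Areg, at -126 and -15 in Tgfa, at -9 in Egfr, and at -152, -97 and -93 in Errfi1, the last pair overlapping, and stands in 35.7% of all windows. CCGGAAG matched in Egfr at -120 and stands in 8.86% of windows. TGANTCA, in 7.81% of all windows, matched none of the 8 windows of the 7 members. GGAATG, in 14.7% of all windows, matched the Erbb2 window at -88 and a second Errfi1 window at -65. GC content was 59.3% in the Areg, 70.7% in the Tgfa, 62.3% in the Egfr and 66.7% in the printed Errfi1 window, against a median of 52.7%. A match is a run of letters, not a bound site, and Areg and Errfi1, alike in this layout in the printed windows, had different changes.

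The RNA exosome takes part in the decay of mRNAs with AU-rich elements, so the longest annotated 3′ UTR of each member (GENCODE M21) was searched for ATTTA and for the nonamer TTATTTATT on the sense strand. The nonamer contains 1 ATTTA and was present once each in Areg, Ereg, Tgfa and Erbb3. It stands in 7.98% of the 3′ UTRs of 15106 genes in the table. Among genes with a 3′ UTR within 1.5-fold of the same length, the share was 13.7% for Ereg, 14.6% for Tgfa, 9.18% for Erbb3 and 1.82% for Areg. The sites with 10 bases on each side are shown for all 4 members that hold the nonamer, which is in capitals. These 4 members rose, as did Btc, Epgn, Egfr and Erbb2, which lack it.
Areg 3′ UTR: tatttaagtgTTATTTATTttatagctca
Ereg 3′ UTR: ttgtcagtttTTATTTATTttttgttagg
Tgfa 3′ UTR: gatgcgtgtcTTATTTATTagatggataa
Erbb3 3′ UTR: actgtaaggaTTATTTATTtcaggaactt

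The Areg 3′ UTR was short and dense in the pentamer. It has 253 bases with 4 ATTTA, or 15.8 per kb, against a median of 1.18 per kb over all genes. Of 1595 genes with a 3′ UTR within 1.5-fold of its length, 99.7% had a lower density, and 1.82% held the nonamer. The 3501-base Ereg 3′ UTR holds 9 ATTTA (2.57 per kb), and that of Tgfa, with 3764 bases, holds 4 (1.06 per kb). Egfr has 12 ATTTA in 6303 bases (1.90 per kb) and no nonamer. Epgn and Erbb2 hold no ATTTA, and both rose. Hbegf, which fell, and Errfi1, which was not called, have 4 each in 1456 and 1390 bases. Risers thus stood at both ends of the range of pentamer density.

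Egfr rose the most among the receptors, and by as much as any member in the ratio of means. The gene (ENSMUSG00000020122.16, chromosome 11, 16752203 to 16918158) measured 10045, 7978 and 8160 in clones 5, 6 and 7, against 158, 138 and 308 in controls 1, 2 and 3. The lowest clone lies far above the highest control, and control 3 is the highest control. The means were 8727 ± 1144 in the clones and 202 ± 93.0 in the controls, a ratio of 43.3. The log2 fold change was 5.51 ± 0.27 (adjusted p = 3.57e-07 in limma), and 188 of the 15179 genes tested (1.24%) had a higher one.

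Erbb3 and Erbb2 rose less but with little spread. Erbb3 (chromosome 10, 128567523 to 128589652) measured 5550, 6043 and 5096 in clones 5, 6 and 7, against 1167, 1095 and 1109 in controls 1, 2 and 3. Its log2 fold change was 2.30 ± 0.10 (adjusted p = 2.13e-07 in limma). Erbb2 (chromosome 11, 98412470 to 98437716) measured 829, 952 and 911 in the clones, against 208, 292 and 278 in the controls. Erbb2 thus had a log2 fold change of 1.80 ± 0.16 (adjusted p = 1.24e-05 in limma). In neither gene did the groups overlap, and the ratios of means were 4.95 and 3.46. The remaining receptor of the family, Erbb4, binds neuregulins and some ligands of EGFR. It was not among the genes with values here and so was not analysed.

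Tgfa was the ligand with the smallest relative error. It encodes TGF-α and lies on chromosome 6 (86195223 to 86275719). It measured 3145, 3455 and 3531 in clones 5, 6 and 7, against 173, 126 and 141 in controls 1, 2 and 3. All clones exceed all controls by more than 10-fold. The means were 3377 ± 205 in the clones and 147 ± 24.1 in the controls, a ratio of 23.0, with a log2 fold change of 4.53 ± 0.15 and an adjusted p of 6.56e-08 in limma.

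Areg and Ereg, which encode amphiregulin and epiregulin, rose to moderate levels. Ereg measured 1572, 989 and 1251 in clones 5, 6 and 7, against 149, 69.1 and 196 in controls 1, 2 and 3, with a log2 fold change of 3.29 ± 0.36 and an adjusted p of 3.69e-05 in limma. Areg measured 318, 202 and 244 in the clones, against 6.63, 0 and 11.0 in the controls. The control group held 18 Areg reads in all, and control 2 had none. The ratio of means was 43.3, with a 95% exact Poisson interval of 27.4 to 73.0 from the control reads, which covers counting error only since PCR reads are not independent molecules. The log2 fold change of Areg was 5.80 ± 0.80 (adjusted p = 0.000177 in limma), and its size rests on the near-empty controls. It was 5.36 with edgeR and 5.40 with DESeq2, both lower than in limma. It was 4.71 without control 2, 6.51 without control 3, 4.71 with a pseudocount of 5 and 6.73 with quantile normalization.

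Btc and Epgn, which encode betacellulin and epigen, rose but stayed scarce. Btc measured 78.6, 46.2 and 45.2 in clones 5, 6 and 7, against 0.947, 2.16 and 2.01 in controls 1, 2 and 3, where it had 5 reads in all. Its ratio of means was 33.2 (95% exact Poisson interval 14.2 to 102). Its log2 fold change was 4.40 ± 0.36 (adjusted p = 6.31e-06 in limma), 3.16 with a pseudocount of 5, 5.06 with DESeq2 and 5.42 with quantile normalization. Epgn measured 22.9, 15.4 and 22.1 in the clones, against 3.79, 0 and 2.01 in the controls, where it had 6 reads. Its ratio of means was 10.4 (interval 4.79 to 28.4). Its log2 fold change was 3.10 ± 0.56 (adjusted p = 0.000911 in limma), 2.46 without control 2, 1.88 with a pseudocount of 5 and 4.30 with quantile normalization. Neither gene exceeded 78.6 scaled counts in any library, so their levels are known far less well than those of Tgfa or Egfr.

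Hbegf, which encodes HB-EGF and lies on chromosome 18 (36504927 to 36515805), was the 1 member that fell. It measured 454, 300 and 457 in clones 5, 6 and 7, against 635, 552 and 765 in controls 1, 2 and 3. Every clone is below every control, but the gap between the nearest libraries is small. The means were 403 ± 89.6 in the clones and 651 ± 108 in the controls, a ratio of 0.620. The log2 fold change was -0.70 ± 0.20 (limma), and its adjusted p of 0.0125 ranged from 0.00261 to 0.0438 over 17 alternatives.

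Errfi1 (chromosome 4, 150853919 to 150868892) was not called. It measured 1174, 927 and 1001 in clones 5, 6 and 7, against 992, 736 and 1302 in controls 1, 2 and 3. The clones lie within the range of the controls. Its means were 1034 ± 127 in the clones and 1010 ± 283 in the controls. The log2 fold change was 0.07 ± 0.20 (adjusted p = 0.781 in limma), which does not show that the level was equal. Its sign turned under 3 alternatives, with -0.15 under quantile normalization, -0.03 without clone 5 and -0.14 without control 2.

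**Figure D2:**
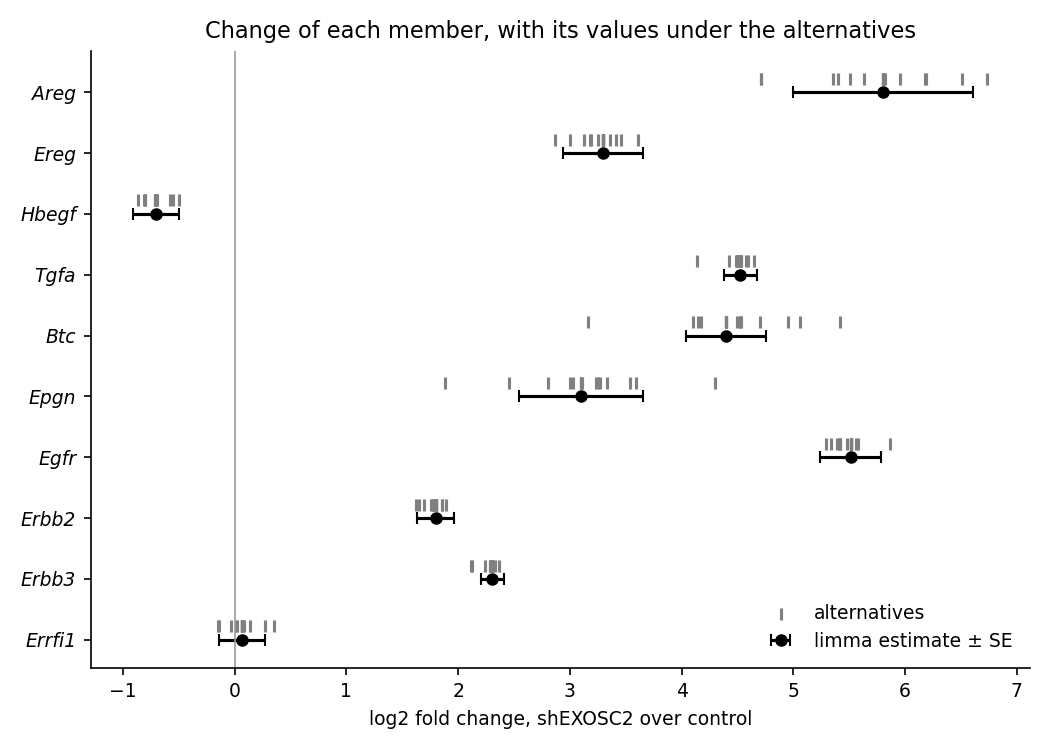
Black points are limma log2 fold changes (shEXOSC2 over control) with SE bars, and grey ticks are the same value under each of 17 alternatives. Egfr, Tgfa, Erbb2 and Erbb3 keep to a narrow range, Areg, Btc and Epgn spread widely above 0, and Errfi1 straddles 0.

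Within each group the libraries had a shared order for several members. Control 2 was the lowest control for 8 of 10 members, against 39.0% of all genes tested, and control 3 the highest for 5, against 40.1%. Those 5 were Areg, Ereg, Hbegf, Egfr and Errfi1, and control 2 was the lowest for each of them. Among the clones, clone 5 was highest for 6 members (35.3% of all genes) and clone 6 lowest for 6 (31.3%). Areg, Ereg, Epgn, Egfr and Errfi1 had clone 5 highest and clone 6 lowest. Relative spread in the controls was 94.4% for Areg, 46.5% for Ereg and 46.1% for Egfr (coefficient of variation, n = 3), against 3.38% for Erbb3.

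Divided by the length of annotated exons, the family had another leading ligand in each group. Levels here are scaled counts per kb, which depend on the annotated isoforms. The 6 ligands summed to between 1019 and 1251 per kb in the clones, against 151 to 238 per kb in the controls. Tgfa made up 38.7% to 52.2% of that sum in the clones, against 9.10% to 13.2% in the controls. Hbegf made up 6.09% to 8.11% in the clones, against 65.1% to 75.7% in the controls. The Areg share was 16.3% to 20.9% in the clones, against 0% to 3.82% in the controls, and the Ereg share 23.5% to 30.4% against 11.1% to 19.9%. None of these 4 shares overlapped between the groups.

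The receptors also changed in proportion. The 3 receptors summed to between 1742 and 1968 per kb in the clones, against 248 to 265 per kb in the controls. Egfr took 37.2% to 45.1% of the sum in the clones, against 4.88% to 10.3% in the controls. Erbb3 took 46.9% to 53.1% in the clones, against 69.6% to 78.2% in the controls, so it led the receptors on average in both groups. The Erbb2 share averaged 9.26% ± 1.04 in the clones and 19.6% ± 3.16 in the controls (SD, n = 3 each), although its level rose.

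**Figure D3:**
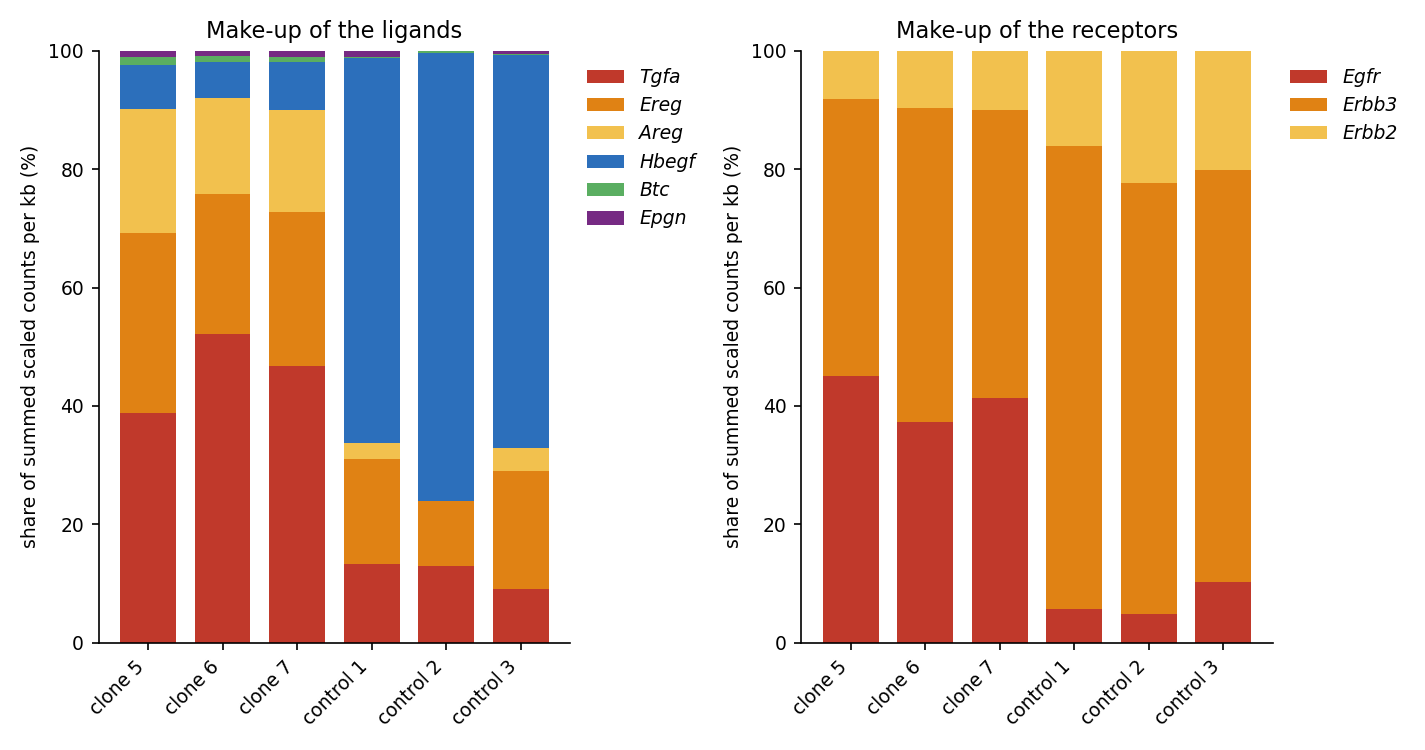
Stacked bars give each gene's share (%) of the summed scaled counts per kb of exon in each library, for 6 ligands (left) and 3 receptors (right), clones left of controls. Tgfa, Ereg and Areg fill most of the ligand bar in clones, while Hbegf fills over 65% in each control.

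Ordered per kb in the clones, Erbb3 (925 ± 78.8) and Egfr (771 ± 101) stood first with overlapping ranges, and Tgfa followed (520 ± 31.6) with no overlap. Then came Ereg (308 ± 70.7), Errfi1 (289 ± 35.4), Areg (210 ± 48.3) and Erbb2 (172 ± 12.1), each overlapping its neighbour. Hbegf (83.5 ± 18.5), Btc (12.5 ± 4.20) and Epgn (11.1 ± 2.28) closed the order, the last pair overlapping. In the controls Errfi1 (282 ± 79.1), Erbb3 (187 ± 6.31) and Hbegf (135 ± 22.3) led, none overlapping its neighbour. Erbb2 (49.8 ± 8.58), Ereg (33.4 ± 15.5), Tgfa (22.6 ± 3.71) and Egfr (17.8 ± 8.21) formed an overlapping run. Areg (4.85 ± 4.58), Epgn (1.07 ± 1.05) and Btc (0.377 ± 0.146) were lowest, each overlapping its neighbour.

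Of the ligand genes, 4 lie together on chromosome 5. Epgn (91027464 to 91035215), Ereg (91074622 to 91093646), Areg (91139599 to 91148432) and Btc (91357261 to 91402994) span 376 kb with no other protein-coding gene of the table between them, and all 4 rose. The genes tested within 500 kb on each side moved as well, 5 of 6 higher and 1 lower. Mthfd2l, a mitochondrial folate enzyme gene next to Epgn, averaged 329 ± 22.4 in the clones and 57.1 ± 9.67 in the controls. The chemokine genes Cxcl1 and Cxcl5 had log2 fold changes of 2.09 and 1.73, and Ppbp, a platelet chemokine gene, 1.26. Parm1, the tested gene beyond Btc, had 1.03, while Rassf6, farther out on the Epgn side, fell to 15.1 ± 7.63 in the clones, against 60.6 ± 18.6 in the controls. The groups overlapped at Ppbp and Parm1. Over the 1009 chromosome 5 genes tested the median was 0.29 and 45.1% were called higher. The 4 ligands had log2 fold changes of 3.10 to 5.80, but 3 of them passed the filter only through the clones, so these are not ranked against the neighbours.

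**Figure D4:**
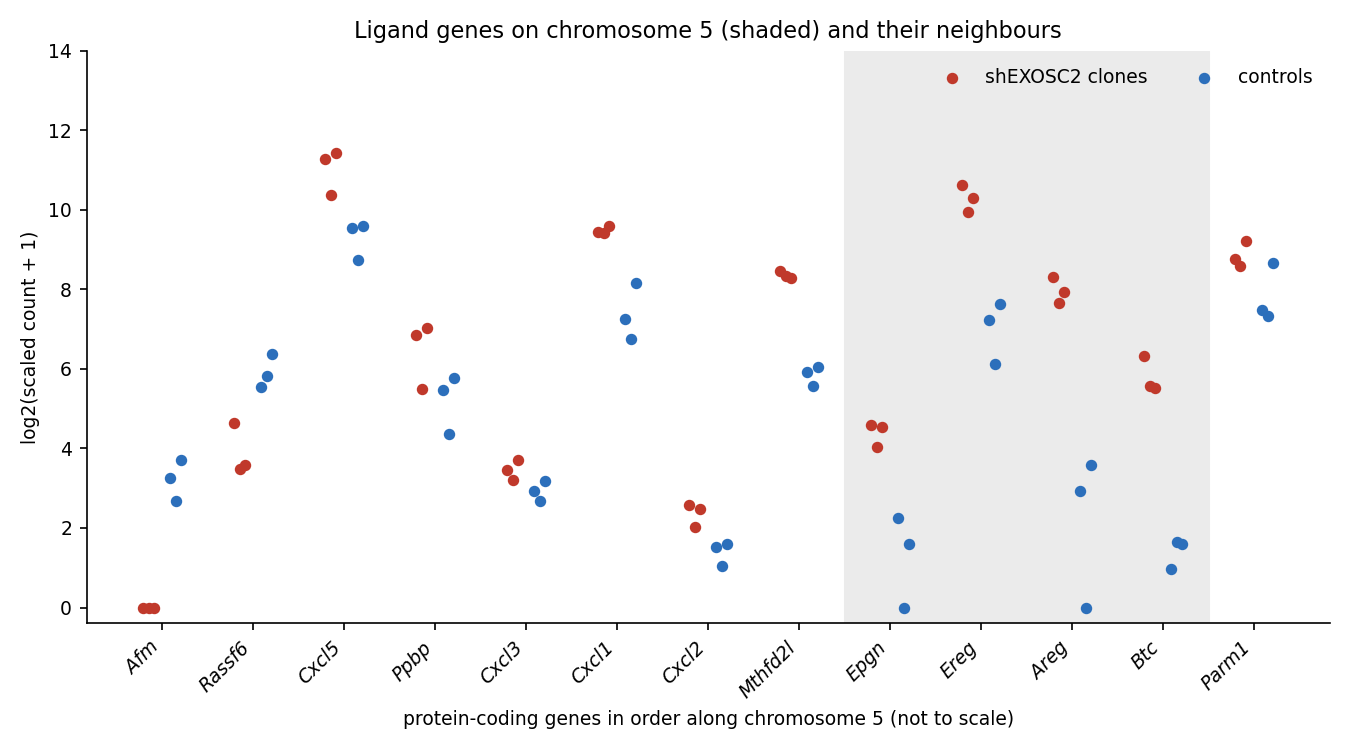
Points are log2(scaled count + 1) per library for protein-coding genes of the table, in order along chromosome 5, with clones in red left of controls in blue and ligand genes shaded. Clones exceed controls at all 4 ligands, and also at Mthfd2l, Cxcl1 and Cxcl5, but not at Rassf6.

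Reads of overlapping genes could touch few member values. In GENCODE M21, exons of other genes overlap 3.42% of the exon bases of Ereg, 1.82% of Tgfa and 0.173% of Erbb2, in each case on the opposite strand, and none of the other 7 members. The sources used here do not state whether reads were counted by strand.

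The other ligand genes of the family divided. Nrg1, whose neuregulins bind ERBB3 and ERBB4, measured 383, 346 and 425 in clones 5, 6 and 7, against 29.4, 11.9 and 42.2 in controls 1, 2 and 3. Its log2 fold change was 3.91 ± 0.40 (adjusted p = 2.83e-05 in limma), or 4.62 with quantile normalization. Nrg4, a neuregulin that binds ERBB4, rose to 140 ± 8.50 in the clones, against 45.4 ± 7.15 in the controls. Nrg2 had no read in any clone and 67 reads in the controls, and was at least 7.72-fold lower against a floor of 3 reads per library. Egf itself measured 37.3 ± 9.97 in the clones and 41.4 ± 18.2 in the controls and was not called (adjusted p = 0.864 in limma). The sign of Egf turned under 5 alternatives. Nrg3 was not among the genes with values here and so was not analysed.

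Around the members, 111 further EGF pathway genes were tested, of which 62 rose, 18 fell and 31 were not called. That is 55.9% higher and 16.2% lower, against 35.2% and 38.3% over all genes tested. Their median log2 fold change was 0.78, against -0.07 over all genes tested. The lists were chosen with earlier results of these data known, so these shares are a description. The background also depends on level. With a mean of at least 50 asked, 4763 genes were called higher and 4465 lower, with a median of 0.02. Of the pathway genes, 61 were then called higher and 17 lower. The 8 groups with at least 4 genes differed in their make-up. The share called higher ran from 29.4% in the RAS, RAF, MEK and ERK cascade to 80% among transcripts induced by ERK.

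Genes of ligand shedding and transport rose in 8, fell in 3 and were not called in 4 of 15 cases. Adam12 had the largest rise, with 196 ± 55.3 in the clones and 15.4 ± 2.13 in the controls. Adam17, the main sheddase of TGF-α, amphiregulin and HB-EGF, is named after its values were seen, as are Adam10 and Nkd2. It averaged 2633 in the clones and 1413 in the controls, a log2 fold change of 0.90 ± 0.10. Adam10, which sheds betacellulin and EGF, had 1.66 ± 0.15. Ap1m2, a subunit of the epithelial sorting adaptor AP-1B, had no read in the clones and 1358 ± 157 in the controls, at least 461-fold lower. Nkd2, which escorts TGF-α to the basolateral membrane, fell to 7.84 in the clones, against 176 in the controls.

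Receptor adaptors rose in 8 and fell in 4 of 16 cases. Gab2 and Gab1, docking proteins of the same family, took opposite courses. Gab2 averaged 753 ± 72.3 in the clones and 113 ± 36.6 in the controls, while Gab1 averaged 921 ± 35.8 in the clones and 9026 ± 1269 in the controls. Inhibitors, ubiquitin ligases and phosphatases of the receptors rose in 7 and fell in 4 of 14 cases. Ptprj, a receptor phosphatase that acts on EGFR, averaged 4277 ± 306 in the clones and 189 ± 36.4 in the controls. Cblc, a ligase of the CBL family, fell by 3.37 on the log2 scale. The LRIG genes are named after their values were seen. Lrig1, a transmembrane inhibitor of ERBB receptors, had a log2 fold change of 3.43 ± 0.12, while its family members Lrig2 and Lrig3 had -0.67 ± 0.16 and -1.73 ± 0.15.

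Among 14 endocytosis and sorting genes 8 rose, and 0 fell in limma, nor at an unadjusted p under 0.05 or with edgeR or DESeq2. Stambp, a deubiquitinase of endosomal sorting, had the largest rise of the group, with a log2 fold change of 2.05 ± 0.19, and Epn1, an endocytic adaptor, had the smallest among its called genes, 0.75 ± 0.20. The RAS, RAF, MEK and ERK cascade was the group with most genes not called, 9 of 17, with 5 higher, 3 lower and a median of 0.09. Rps6ka3, an ERK-activated kinase gene, averaged 9135 ± 552 in the clones and 1220 ± 260 in the controls, and the scaffold gene Ksr1 fell by 1.47 on the log2 scale. In the PI3K, AKT and STAT branch 12 of 16 rose and 1 fell. Akt1 averaged 8458 ± 1176 in the clones and 1303 ± 253 in the controls, and Pik3cd, a catalytic subunit gene of PI3K, fell by 1.76.

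Transcripts induced by ERK rose in 12 and fell in 2 of 15 cases, with a median log2 fold change of 1.29. Myc led them at 11859 ± 874 in the clones and 265 ± 85.0 in the controls. Egr1, an immediate early gene, measured 299, 247 and 377 in clones 5, 6 and 7, against 2964, 2698 and 429 in controls 1, 2 and 3. The clones sit below all controls, but control 3, which was highest for Egfr, Ereg and Areg, is close to them. Its log2 fold change of -2.31 ± 0.64 (adjusted p = 0.0102 in limma) became -3.22 without control 3 and missed the threshold without control 1 (-1.82, adjusted p = 0.0600). Fos, the other member of the list that fell, had -1.57 ± 0.19. Among the inhibitors of ERK signalling that the pathway itself induces, Dusp6 and Spry4 had 1.29 ± 0.20 and 0.87 ± 0.31. Both were lowest in control 3. Spry4 measured 2312, 1809 and 850 in controls 1, 2 and 3, against 2713, 3031 and 2630 in clones 5, 6 and 7. Dusp6 measured 1100, 1114 and 683 in the controls. Spry2, listed with the receptor inhibitors, was not called (-0.09 ± 0.16). Fos, Dusp6, Spry4 and Spry2 are named after their values were seen.

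**Figure D5:**
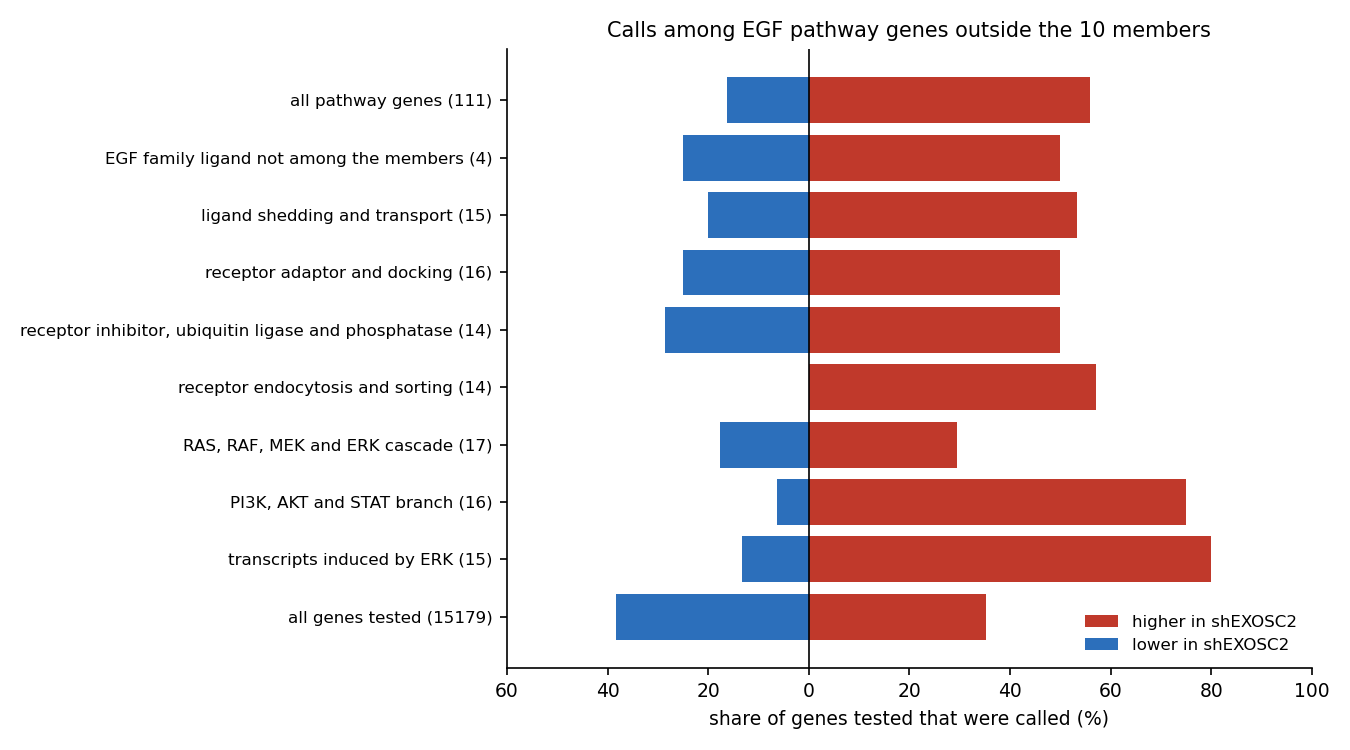
Bars give the share (%) of genes tested in each EGF pathway group that were called higher (red, right) or lower (blue, left) in shEXOSC2 clones, with the number tested in brackets and all genes in the bottom row. The higher share reaches 80% among transcripts induced by ERK, and the lower share is 0% among endocytosis genes.

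Genes closest to each member in profile were found by the root mean square difference of log2 values over the 6 libraries after subtraction of the control mean, among 11353 genes with a mean of at least 100. Serpinb8, Hoxa5 and Gpr39 were nearest to Egfr, at 0.134, 0.159 and 0.165. Ssbp2, C920009B18Rik and Cnr1 were nearest to Tgfa, at 0.102, 0.106 and 0.107. For Ereg they were Sned1, Cdh2 and Antxr1, at 0.162, 0.173 and 0.225. For Areg the nearest were Rab27b, D130017N08Rik and Cp, and none came closer than 0.569. Erbb3 was nearest to Swap70, Marcks and Ppp1r21 (0.0515 to 0.0661), Erbb2 to Phldb1, Slc27a4 and Bcl2l1 (0.0427 to 0.0635), and Hbegf to Gulp1, Stxbp4 and Cntrl (0.0960 to 0.118). With 2 groups of 3 libraries this likeness mostly measures an equal difference between groups.

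Of the marker lists for other cell types, the fibroblast list had summed levels that did not overlap between the groups. Of 9 fibroblast and feeder cell markers tested, 8 rose and 1 fell, and the summed level of all 10 was 53257 to 70500 in the clones, against 11068 to 12248 in the controls. Vim, the largest term of the sum, averaged 27647 in the clones and 4053 in the controls. Thy1, the 1 that fell, averaged 209 in the clones and 394 in the controls. Dcn rose but stayed scarce, at 28.0 in the clones and 8.83 in the controls, and Lum was too scarce to be tested. Of 9 epithelial markers tested, 5 rose and 4 fell, with sums of 29576 to 32270 in the clones, against 24605 to 39246 in the controls. Ehf, the largest term in the clones, averaged 16997 there and 1.69 in the controls. Krt5, Krt14, Krt8 and Krt6a also rose, and Krt6a had no read in the controls. Cdh1, Epcam, Krt18 and Cldn4 fell, so similar sums came from different genes. Of 6 white blood cell markers tested, 3 rose and 1 fell, with sums of 2140 to 2556 in the clones, against 2152 to 2857 in the controls. Laptm5, the 1 that fell, averaged 6.57 in the clones and 1593 in the controls. Sums of the epithelial and white blood cell lists overlapped between the groups. Over all genes tested 35.2% were called higher and 38.3% lower, the background for these counts and those of the stem cell list. The 44.4% of epithelial markers called lower was near that share. Dcn, Krt5, Krt6a, Ehf, Itgam and Cd14 reached the mean of 10 only through the clones, and Laptm5 only through the controls. Those genes had to differ, so the counts are a description. The part of these cell types in the member values was not tested.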

How the data were processed

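Poly(A) RNA was selected from 500 ng of total RNA and amplified over 8 PCR cycles in a TruSeq stranded library preparation, per the labels' protocols. The submitters' processing notes name the build mm10 and the tools STAR 2.5.0a, cutadapt 1.6, DESeq 1.22.1 and HTSeq 0.5.3, with no order or settings. The deposited values are a signal, read counts per gene that the authors divided by a size factor for each library. Whole reads were recovered from the steps between low values, and 100% of values in every library were whole within 0.001 read. The lowest sum over the 6 libraries was 15 reads.

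Values were tested with limma 3.58.1 (lmFit, eBayes with trend, R 4.3.3) on log2(value + 1), keeping genes whose mean reached 10. Adjusted p-values are Benjamini-Hochberg over all genes tested. edgeR 4.0.16 on the recovered reads called 5190 genes higher and 5960 lower, and DESeq2 1.42.0 was a further alternative. The procedure was also run on simulated counts in which few genes changed. Most genes were called in the real data, so that run cannot show how it performs here. Gene positions came from GENCODE M21, which matched 17860 of 17912 genes (99.7%). Shared replicate numbers do not occur between the groups.

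Besides the members, the text names Exosc2, the called gene with the highest and lowest change of each pathway group, the other family ligands, the nearest genes by profile and the cell type markers. Members and lists were chosen with earlier results of these data known. Alternatives were other pseudocounts, filters, scalings, variance models and tests, and leaving out each library.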

Additional observations from a re-analysis of the deposited data

How the results depend on the processing

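Of 168 member values under 17 alternatives, 165 kept their direction and their side of the threshold and 3 reversed, all of them Errfi1, for which the cause was not tested. Errfi1 had a log2 fold change of -0.15 under quantile normalization, and from -0.14 to 0.27 when 1 library was left out, with -0.03 without clone 5 and -0.14 without control 2. Egf, not called at -0.08, had 0.89 under quantile normalization and 0.10 after centring on each chromosome. It ranged from -0.48 to 0.20 when 1 library was left out, with 0.16 without clone 7, 0.04 without control 1 and 0.20 without control 3. The members called higher numbered 6 to 8, with 6 where a mean of at least 50 was asked, which left out Btc and Epgn, and 1 was lower in every alternative. Pathway genes called higher numbered 58 to 69 and lower 17 to 25. All genes called higher numbered 4763 to 5712 and lower 4465 to 6841. Depth limits Areg, Btc and Epgn, which had 18, 5 and 6 reads over the 3 controls. No paired analysis was possible because the controls are numbered 1 to 3 and the clones 5 to 7, so the groups share no replicate number.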
